A study of Mus musculus with 49 samples.

Results

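The comparison described here set bulk mammary tumors of 3 mice given BP, an iron oxide nanoparticle known in the labels only by that code, against bulk mammary tumors of 3 mice given PBS. The 6 RNA sequencing libraries were chosen by tissue, cell type and treatment label and are 6 of the 49 libraries of the series, with 1 tumor per mouse and different mice in each group. All 6 mice were HuHER2 transgenic animals, which develop mammary tumors, and were palpated from 7 months of age. The promoter that drives the human HER2 transgene was not given in the sources used here. BP mice received 1 intravenous injection of 5 mg Fe per mouse and PBS mice received PBS alone. The series' design text gives collection 7 days after treatment, while a treatment label gives 31 days for animals taken from larger groups, and which applies to these tumors could not be settled. Mice were assigned to BP or PBS at random once a tumor was found. The transgene itself is not measured, because the deposited table holds mouse genes only.

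HER2 is a receptor tyrosine kinase whose excess drives growth of mammary luminal cells through partner receptors such as HER3. Iron oxide particles are mostly taken up by phagocytes, which break them down and store or export the iron. Heme oxygenase 1, encoded by Hmox1, splits heme into biliverdin, carbon monoxide and iron and is a common readout of heme load and oxidative stress. Cells under endoplasmic reticulum stress raise chaperone genes through the unfolded protein response, a pathway active in many secretory and tumor cells.

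The 6 libraries held 12664529 to 16666721 expected counts, so that 3 counts, the limit that a count of 0 allows, equal 0.180 to 0.237 CPM (the count scaled to the library size, TMM-scaled unless a library total is named). Intervals and floors of this kind cover counting error alone. Mouse numbers below are the replicate numbers of the labels. The luminal epithelial genes were present in every tumor. Epcam was at 799.7, 1869 and 1235 CPM in BP tumors and 1917, 1307 and 1531 CPM in PBS tumors. Krt8, a luminal keratin, was at 656, 1482 and 1301 CPM in BP tumors and 1442, 1590.5 and 1562 CPM in PBS tumors. The tumors also held unequal amounts of other tissue. Summed CPM of the 30 white adipocyte genes was 51910.0, 5677 and 2981 in BP tumors and 1272, 1671 and 5083 in PBS tumors. Mitochondrial transcripts took 19.5%, 8.33% and 3.97% of the counts in BP tumors, against 4.06%, 3.06% and 3.06% in PBS tumors, a difference of 7.19 percentage points (exact two-sided permutation p = 0.2, where 0.1 is the smallest p that 3 against 3 allows). Without BP tumor 1 the difference was 2.76 percentage points. BP tumor 1 was thus the fat-rich library. BP tumor 2 was rich in skeletal muscle transcripts, with Acta1, skeletal muscle actin, at 1400.5 CPM and at most 2.05 CPM in each of the other 5 tumors. BP tumor 3 was not, with a fat sum inside the PBS range. In bulk tissue, fewer cells of a type and less RNA per cell cannot be told apart.

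By edgeR's quasi-likelihood test, 0 of 14535 genes differed between BP and PBS tumors at an adjusted p under 0.05, a share of 0%, and the lowest adjusted p was 0.797. At an unadjusted p under 0.05 there were 639 genes higher in BP tumors (4.40%) and 228 lower (1.57%), together 5.96% of the genes, or 781 and 135 with upper-quartile scaling. With 1 tumor left out the sum of 867 ranged between 408 without BP tumor 1 and 1661 without BP tumor 3, with 1603 without PBS tumor 1 and 501 without PBS tumor 2. DESeq2, on the genes of the same test, called 143 higher (0.984%) and 8 lower (0.0550%). Groups did not overlap, meaning that every BP tumor lay on 1 side of every PBS tumor, for 822 genes on the higher side (5.66%) and 748 on the lower side (5.15%). The biological coefficient of variation was 0.513. Since no gene passed the edgeR test, the values below are differences that did not reach that threshold unless DESeq2 is named. The 6 mice are the replicates, and the p-values measure the spread between them.

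The gene with the smallest p was Hmox1 (ENSMUSG00000005413, chromosome 8, 75093621 to 75100589, GRCm38). Hmox1 stood at 38.8, 29.4 and 21.4 CPM in BP tumors, against 122.8, 166 and 125 CPM in PBS tumors. All 3 BP tumors lay below all 3 PBS tumors, and the gap between the groups was wider than the range of either group. The group means were 29.9 ± 8.69 CPM in BP tumors and 138 ± 23.99 CPM in PBS tumors (SD, n = 3 each), with a log2 fold change of -2.21 ± 0.30 (edgeR unadjusted p = 0.000149, adjusted p = 0.797; DESeq2 adjusted p = 6.91e-06). With each tumor left out in turn the log2 fold change stayed between -2.42 and -2.05. It was -2.66 with BP tumor 3, a single library, set alone against the PBS tumors. Macrophages are a major source of Hmox1 in many tissues. Cd68 was at 37.4, 23.8 and 21.8 CPM in BP tumors and 34.3, 12.9 and 22.9 CPM in PBS tumors, and Adgre1, the gene of the macrophage surface protein F4/80, at 28.6, 23.4 and 28.4 CPM in BP tumors and 27.01, 11.6 and 24.4 CPM in PBS tumors. Both overlapped between groups. Of the 28 tested macrophage genes, 24 were higher and 4 lower in BP tumors, none without overlap (5.66% higher and 5.15% lower over all genes). Their median log2 fold change was 0.46. With 1 tumor left out it ranged from 0.08 without PBS tumor 2 to 1.00 without PBS tumor 1. The part of macrophages in the Hmox1 levels was not tested.

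**Figure D1:**
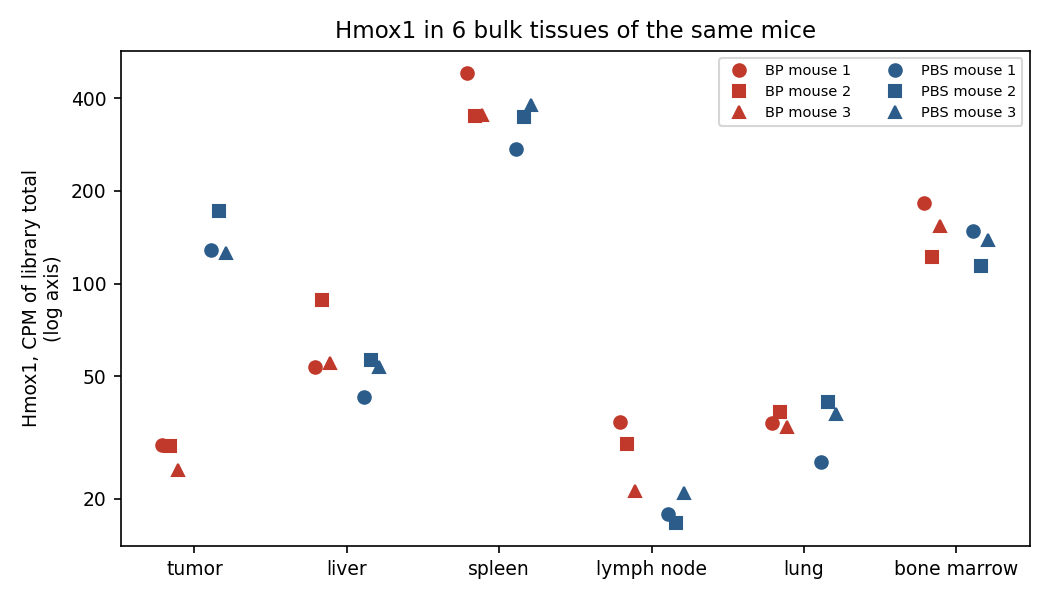
Hmox1 level in each bulk library of the 6 mice (CPM of the library total, log axis), BP mice left of PBS mice in each tissue, with 1 symbol per mouse. The BP tumors lie at 24.7 to 29.96 CPM and the PBS tumors at 126 to 172 CPM, while in the other 5 tissues the mean of the BP mice is not lower.

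In the other 5 organs of the same mice the mean of Hmox1 was not lower after BP. It averaged 64.0 ± 17.6 CPM in BP livers and 51.9 ± 5.31 CPM in PBS livers, and 394 ± 59.1 CPM in BP spleens and 343 ± 98.6 CPM in PBS spleens (SD, n = 3 each). The log2 fold changes were 0.22 ± 0.16 in bone marrow, 0.05 ± 0.24 in lung and 0.45 ± 0.27 in lymph node, with edgeR adjusted p of 0.866 in lymph node and higher in the other 4. In lymph node all 3 BP mice lay above all 3 PBS mice, at 35.6, 30.01 and 21.2 CPM of the library total in BP mice and 17.8, 16.7 and 20.8 CPM in PBS mice. A test of the difference itself gave a tumor change that was lower than the mean change of the other 5 organs by 2.52 on the log2 scale (edgeR interaction, adjusted p = 1.85e-05, and past 0.05 with each tumor left out). In that test organs of 1 mouse are not independent and all organs share 1 estimate of the spread. In the cells that were pulled from the same BP tumors with a magnet, Hmox1 stood at 103, 112 and 79.9 CPM of the library total, against 29.96, 29.6 and 24.7 CPM in the bulk tumors of these mice. Those nanoparticle-associated libraries were rich in epithelial transcripts, with Epcam at 2631, 2696 and 2177 CPM of the library total.

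Across heme breakdown and iron handling, 42 of 46 listed genes were tested, of which 26 were higher and 16 lower in BP tumors (median log2 fold change 0.15, against -0.05 over all tested genes). Groups did not overlap for 7 on the higher and 2 on the lower side, where over all genes the shares were 5.66% and 5.15%. In heme handling, Hp, haptoglobin, which binds free hemoglobin, was higher in BP tumors. Hp was measured at 687, 134 and 60.6 CPM in BP tumors, against 50.3, 6.46 and 20.7 CPM in PBS tumors (log2 fold change 3.51 ± 1.10, DESeq2 adjusted p = 0.0217). BP tumor 1 was the highest and BP tumor 3 only just above PBS tumor 1. Cd163, the macrophage receptor for hemoglobin bound to haptoglobin, was at 13.8, 9.74 and 3.28 CPM in BP tumors and 4.20, 0.960 and 1.10 CPM in PBS tumors, with an overlap between BP tumor 3 and PBS tumor 1. Blvrb, the biliverdin reductase B that acts downstream of heme oxygenase, was at 71.3, 36.5 and 29.4 CPM in BP tumors, against 19.6, 18.9 and 25.5 CPM in PBS tumors (log2 fold change 1.10 ± 0.38). Hmox2, the constitutive heme oxygenase, was at 54.1, 64.4 and 52.8 CPM in BP tumors and 55.3, 52.6 and 48.7 CPM in PBS tumors, with overlapping groups. Hemoglobin transcripts, a sign of red cells, were highest in BP tumor 2. Hbb-bs stood at 272, 932 and 243 CPM in BP tumors, against 197, 114 and 230.5 CPM in PBS tumors (log2 fold change 1.42 ± 0.59), and its close copy Hbb-bt makes these estimated counts uncertain. The part of blood in the Hmox1 levels was not tested.

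Among iron genes, Heph, a ferroxidase that works with the iron exporter, showed the largest log2 fold change at 3.78 ± 1.06 (DESeq2 adjusted p = 0.0101). Heph was measured at 18.8, 4.30 and 5.57 CPM in BP tumors, against 1.38, 0.0640 and 0.628 CPM in PBS tumors. Its PBS tumor 2 value was under the floor of 3 counts, so the size of this fitted change is uncertain. Bmp6, the growth factor that signals iron load to hepcidin, was at 4.71, 1.93 and 1.40 CPM in BP tumors, against 0.435, 0.384 and 0.393 CPM in PBS tumors (log2 fold change 2.696 ± 0.65). Both genes were higher in all 3 BP tumors, BP tumor 3 included. Steap4, a metalloreductase, stood at 240.1, 35.4 and 33.9 CPM in BP tumors, against 29.6, 14.2 and 16.4 CPM in PBS tumors (log2 fold change 2.36 ± 0.83). Its relative Steap3 had a log2 fold change of 0.69 ± 0.41. Fbxl5, the iron sensor that marks an iron regulatory protein for breakdown, was higher in every BP tumor but by 0.16 on the log2 scale only, and Hamp, hepcidin, was lower by a log2 fold change of -0.34, at 6.87, 7.09 and 3.69 CPM in BP tumors and 7.24, 7.87 and 7.15 CPM in PBS tumors. The storage and transport genes overlapped. Fth1, ferritin heavy chain, was at 1648, 2463 and 705 CPM in BP tumors and 1108, 1112 and 1244 CPM in PBS tumors. Slc40a1, ferroportin, the only known iron exporter of vertebrates, was at 45.7, 50.04 and 31.6 CPM in BP tumors and 74.6, 45.4 and 83.8 CPM in PBS tumors. BP tumor 1 and BP tumor 2 both lay just above PBS tumor 2 for Slc40a1, and the log2 fold change was -0.68 ± 0.31. Ftl1 and Tfrc, ferritin light chain and transferrin receptor, had log2 fold changes of 0.06 ± 0.40 and -0.31 ± 0.38, Trf, transferrin, -0.86 ± 0.74 and the siderophore-binding gene Lcn2 0.64 ± 0.52. The remaining tested members, which are Abcg2, Aco1, Bach1, Blvra, Cp, Flvcr1, Flvcr2, Hfe, Hpx, Ireb2, Lrp1, Ncoa4, Pcbp1, Pcbp2, Scara5, Slc11a1, Slc11a2, Slc25a28, Slc25a37, Slc39a14, Slc39a8, Slc46a1, Slc48a1, Steap2 and Tfr2, overlapped between groups as well.

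**Figure D2:**
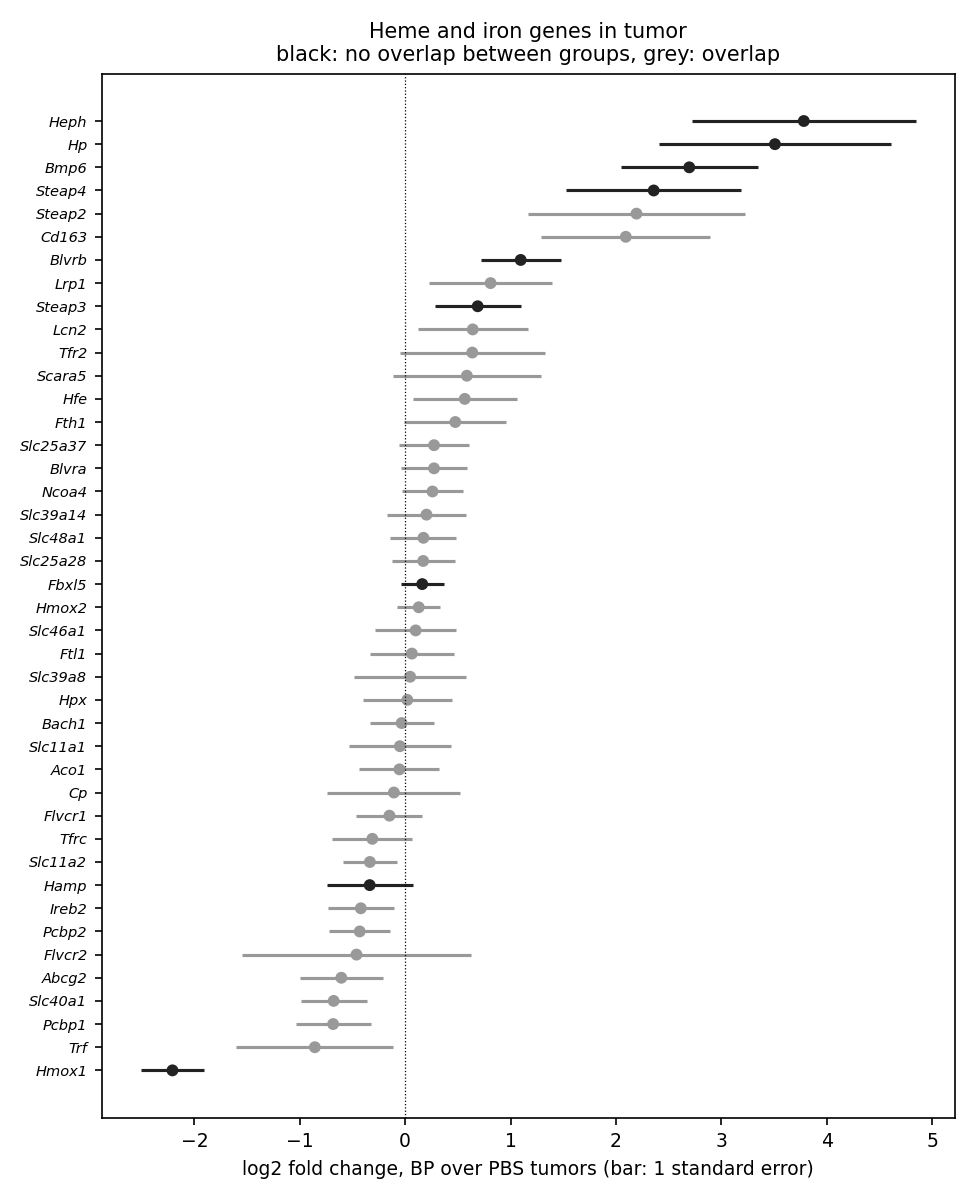
log2 fold change of BP over PBS tumors for the 42 tested heme and iron genes, sorted, with bars of 1 standard error (n = 3 each). Hmox1 stands apart at -2.21, and Heph, Hp and Bmp6 are the highest.

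Genes of the unfolded protein response lay lower in BP tumors. Of 20 listed genes, all tested, 17 were lower and 3 higher (median log2 fold change -0.49, against -0.05 over all tested genes). Groups did not overlap on the lower side for 7, where the share over all genes was 5.15%, and on the higher side for 1 (5.66%). The median stayed between -0.64 and -0.45 with each tumor left out and was -0.51 with BP tumor 3 alone, and 5 of the 20 had an unadjusted p under 0.05 on the lower side (1.57% over all genes). All 7 lay on chromosomes whose overall level was shifted in at least 1 tumor, as described below, which held 15 of the 20 listed and 62.8% of all tested genes, and the part of these shifts was not tested. Those chromosomes were picked by gene levels in these same tumors. Trib3, the gene of a pseudokinase induced in prolonged stress, was measured at 22.1, 42.3 and 33.6 CPM in BP tumors, against 72.5, 76.5 and 53.6 CPM in PBS tumors (log2 fold change -1.05 ± 0.30). Creld2, a disulfide isomerase of the endoplasmic reticulum, was at 34.2, 58.8 and 51.1 CPM in BP tumors, against 78.2, 75.9 and 92.6 CPM in PBS tumors (log2 fold change -0.78 ± 0.27). In both genes every BP tumor lay under every PBS tumor, by the smallest margin in PBS tumor 3 for Trib3 and PBS tumor 2 for Creld2. Calr, the calcium-binding chaperone calreticulin, stood at 729, 765 and 869 CPM in BP tumors, against 1724, 1280.2 and 1061 CPM in PBS tumors (log2 fold change -0.78 ± 0.33). Pdia4, another disulfide isomerase, was measured at 127, 250.2 and 224 CPM in BP tumors, against 337, 414 and 328 CPM in PBS tumors (log2 fold change -0.84 ± 0.33). For Calr the lowest PBS tumor was number 3, and for Pdia4 BP tumor 1 was lowest. Hspa5, the master chaperone BiP, had its groups barely apart. Hspa5 was at 754, 1164 and 1173 CPM in BP tumors, against 1706, 2010.2 and 1187 CPM in PBS tumors (log2 fold change -0.67 ± 0.37). Manf, Atf4, Hsp90b1, Pdia6 and, above, Hbb-bs were chosen after their values were seen, though the list rule given below also picks Hbb-bs. Ddit3 and, further below, Eif2ak3 and Eng were named outside the rules as well. Manf, a stress-induced secreted protein, and Atf4, the transcription factor of the integrated stress response, had log2 fold changes of -0.59 ± 0.25 and -0.49 ± 0.25 without overlap. Ddit3, the stress factor CHOP, ran the other way. Ddit3 stood at 16.6, 21.8 and 11.7 CPM in BP tumors, against 10.9, 8.83 and 9.43 CPM in PBS tumors (log2 fold change 0.78 ± 0.35).

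The endoplasmic reticulum stress element is the promoter motif through which the factor ATF6 is known to raise such chaperone genes. Written as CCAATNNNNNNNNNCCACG and searched on both strands in the 250 bases before each RefSeq gene start (GRCm38.p6), it was found in 37 of 32851 promoter entries, or 0.113%. Of the 20 listed genes 17 had an entry and 5 held the motif, namely Hspa5, Calr, Creld2, Hsp90b1 and Pdia6. The 3 shown are those of the 5 whose tumor groups did not overlap. They are written 5′ to 3′ on the gene's strand, and capitals mark the motif. It starts 65 bases before the gene start in Hspa5 (chr2:34771840-34772089, plus strand), and lies on the opposite strand from 162 bases before it in Calr (chr8:84846932-84847181, minus strand) and from 126 bases before it in Creld2 (chr15:88819396-88819645, plus strand).
Hspa5: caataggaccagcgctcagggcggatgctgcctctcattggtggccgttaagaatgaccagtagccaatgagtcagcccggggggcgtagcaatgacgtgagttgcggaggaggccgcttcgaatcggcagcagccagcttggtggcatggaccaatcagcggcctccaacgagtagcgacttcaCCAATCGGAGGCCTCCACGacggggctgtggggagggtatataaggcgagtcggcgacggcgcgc
Calr: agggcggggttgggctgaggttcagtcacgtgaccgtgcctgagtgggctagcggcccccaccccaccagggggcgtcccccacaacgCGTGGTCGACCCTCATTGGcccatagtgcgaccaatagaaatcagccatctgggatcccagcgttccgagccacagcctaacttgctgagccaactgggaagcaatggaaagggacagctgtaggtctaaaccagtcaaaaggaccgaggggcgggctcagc
Creld2: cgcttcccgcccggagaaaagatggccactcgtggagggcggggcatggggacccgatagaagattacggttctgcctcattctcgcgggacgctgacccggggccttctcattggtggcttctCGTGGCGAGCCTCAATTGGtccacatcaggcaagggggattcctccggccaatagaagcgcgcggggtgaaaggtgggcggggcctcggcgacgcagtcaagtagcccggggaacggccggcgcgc
The 5 genes had log2 fold changes of -0.67 (Hspa5), -0.78 (Calr), -0.78 (Creld2), -0.65 (Pdia6) and -0.47 (Hsp90b1, a chaperone with the motif at 212 and at 107 bases before its start). Trib3, Pdia4 and Atf4 had an entry without these letters in the window. A match describes the sequence and not a bound site.

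In the HER family, receptor transcripts overlapped between groups. Erbb2 was measured at 51.4, 97.7 and 72.7 CPM in BP tumors, against 128, 76.3 and 83.97 CPM in PBS tumors. These are counts of the mouse gene Erbb2, and reads of the human transgene that match it cannot be separated. Erbb3, the kinase-poor partner of HER2, was at 104, 251 and 199.8 CPM in BP tumors and 126, 249 and 226 CPM in PBS tumors. Of 16 tested receptors, ligands and regulators 5 were higher and 11 lower (median log2 fold change -0.33, against -0.05 over all tested genes). Tgfa, an EGF receptor ligand, was at 7.44, 22.2 and 18.9 CPM in BP tumors, against 26.00, 62.8 and 33.5 CPM in PBS tumors (log2 fold change -1.33 ± 0.51). Errfi1, a feedback inhibitor of these receptors, stood at 85.3, 71.7 and 157 CPM in BP tumors, against 166, 202 and 192 CPM in PBS tumors (log2 fold change -0.83 ± 0.34). These were the 2 of 16 that were lower in every BP tumor than in any PBS tumor (5.15% over all genes). Errfi1 came closest in BP tumor 3 and PBS tumor 1. Nrg4, a ligand made by fat, was at 36.9 CPM in fat-rich BP tumor 1 and at most 1.51 CPM in each of the other 5. It was the 1 member higher without overlap (5.66% over all genes).

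In the luminal epithelium list 8 of 29 tested genes were higher and 21 lower in BP tumors (median log2 fold change -0.17). Cdh1, E-cadherin, was the only 1 of the 29 without overlap, on the lower side, where the share over all genes was 5.15%. Cdh1 was measured at 199, 207 and 358 CPM in BP tumors, against 546, 371 and 360.0 CPM in PBS tumors, with BP tumor 3 and PBS tumor 3 nearly level. Krt18, a luminal keratin, was at 679.8, 1858 and 1166 CPM in BP tumors and 798, 1644 and 1687 CPM in PBS tumors. Of 12 tested basal and myoepithelial genes 5 were higher and 7 lower (median -0.38, and -1.04 with BP tumor 3 alone), 1 without overlap (5.66% over all genes). That gene was Krt5, a basal keratin, at 35.7, 4.22 and 1.40 CPM in BP tumors, against 0.579, 0.0640 and 0.157 CPM in PBS tumors (log2 fold change 5.65 ± 1.48, DESeq2 adjusted p = 0.000654), and 2 of the PBS values were under the floor of 3 counts. Krt14, another basal keratin, was at 34.3, 4.65 and 2.86 CPM in BP tumors, against 269.6, 0.576 and 0.785 CPM in PBS tumors (log2 fold change -2.71 ± 2.12), with PBS tumor 1 far above the other 5. In the cell cycle list, 32 of 34 genes were lower (median -0.50), none without overlap (5.15% over all genes). Mki67, a proliferation marker, was at 37.8, 81.6 and 199 CPM in BP tumors and 92.7, 292 and 155 CPM in PBS tumors. Top2a, a topoisomerase of dividing cells, was at 30.1, 110.3 and 174 CPM in BP tumors and 127, 217 and 101 CPM in PBS tumors. BP tumor 1 was the lowest for both and PBS tumor 2 the highest. The list's median was -0.04 without BP tumor 1, -0.05 without PBS tumor 2 and -0.94 without BP tumor 3. With BP tumor 3 alone it was 0.16.

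Among the other genes lower in BP tumors by the smallest p, several act on lipids, matrix or signalling. Lpcat4, a lysophospholipid acyltransferase, stood at 22.7, 15.1 and 18.3 CPM in BP tumors, against 39.5, 104 and 71.3 CPM in PBS tumors (log2 fold change -1.94 ± 0.39, DESeq2 adjusted p = 0.00456). All 3 BP tumors lay below every PBS tumor, and PBS tumor 2 was the highest. Ext1, a polymerase of heparan sulfate, was measured at 56.01, 55.4 and 49.5 CPM in BP tumors, against 86.4, 121 and 129 CPM in PBS tumors (log2 fold change -1.06 ± 0.24). Fbln2, the matrix protein fibulin 2, which ran against most fibroblast genes, was at 75.8, 85.5 and 151 CPM in BP tumors, against 534, 474 and 212 CPM in PBS tumors (log2 fold change -1.96 ± 0.46, DESeq2 adjusted p = 0.0149). BP tumors were tight for Ext1 at 49.5 to 56.0 CPM, and BP tumor 3 was the highest of the 3 for Fbln2. Capn6, a calpain family member, stood at 1.04, 0.215 and 1.98 CPM in BP tumors, against 232, 7.23 and 51.8 CPM in PBS tumors (log2 fold change -6.45 ± 1.42, DESeq2 adjusted p = 6.91e-06), whose BP tumor 2 value is at the floor. Khdrbs3, an RNA-binding splicing regulator, was measured at 51.7, 52.5 and 55.3 CPM in BP tumors, against 103, 94.5 and 128 CPM in PBS tumors (log2 fold change -1.03 ± 0.22, DESeq2 adjusted p = 0.0488). The PBS values of Capn6 spread widely, while those of Khdrbs3 did not. DESeq2 also called the collagenase gene Mmp13 (log2 fold change -3.67 ± 1.19) and the matrix gene Tnc (log2 fold change -3.41 ± 1.17), for which PBS tumor 1 stood far above the rest. In that tumor Mmp13 stood at 37.9 CPM and Tnc at 987 CPM, and without it the log2 fold changes were -1.66 and -0.91. Tnc overlapped between groups. The phosphate transporter gene Slc20a2, the receptor gene Fzd6 of Wnt signalling, the deacetylase complex gene Sap30, the exchange factor gene Fgd1, Cmip and Tmem132a had log2 fold changes from -1.32 to -0.91. Kcnq1, a potassium channel, and Aldh18a1, of proline synthesis, had log2 fold changes of -1.91 ± 0.57 and -1.23 ± 0.37. Treml4, a myeloid receptor, was at 0.753, 0.788 and 0.208 CPM in BP tumors and 1.74, 1.34 and 2.98 CPM in PBS tumors, and Txnrd1, an NRF2 target, had -0.52 ± 0.25. Of the 30 NRF2 antioxidant and ferroptosis defense genes, all tested, 14 were higher and 16 lower (median log2 fold change -0.09). Groups did not overlap for 1 of them on the higher side (5.66% over all genes) and 2 on the lower (5.15%).

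**Figure D3:**
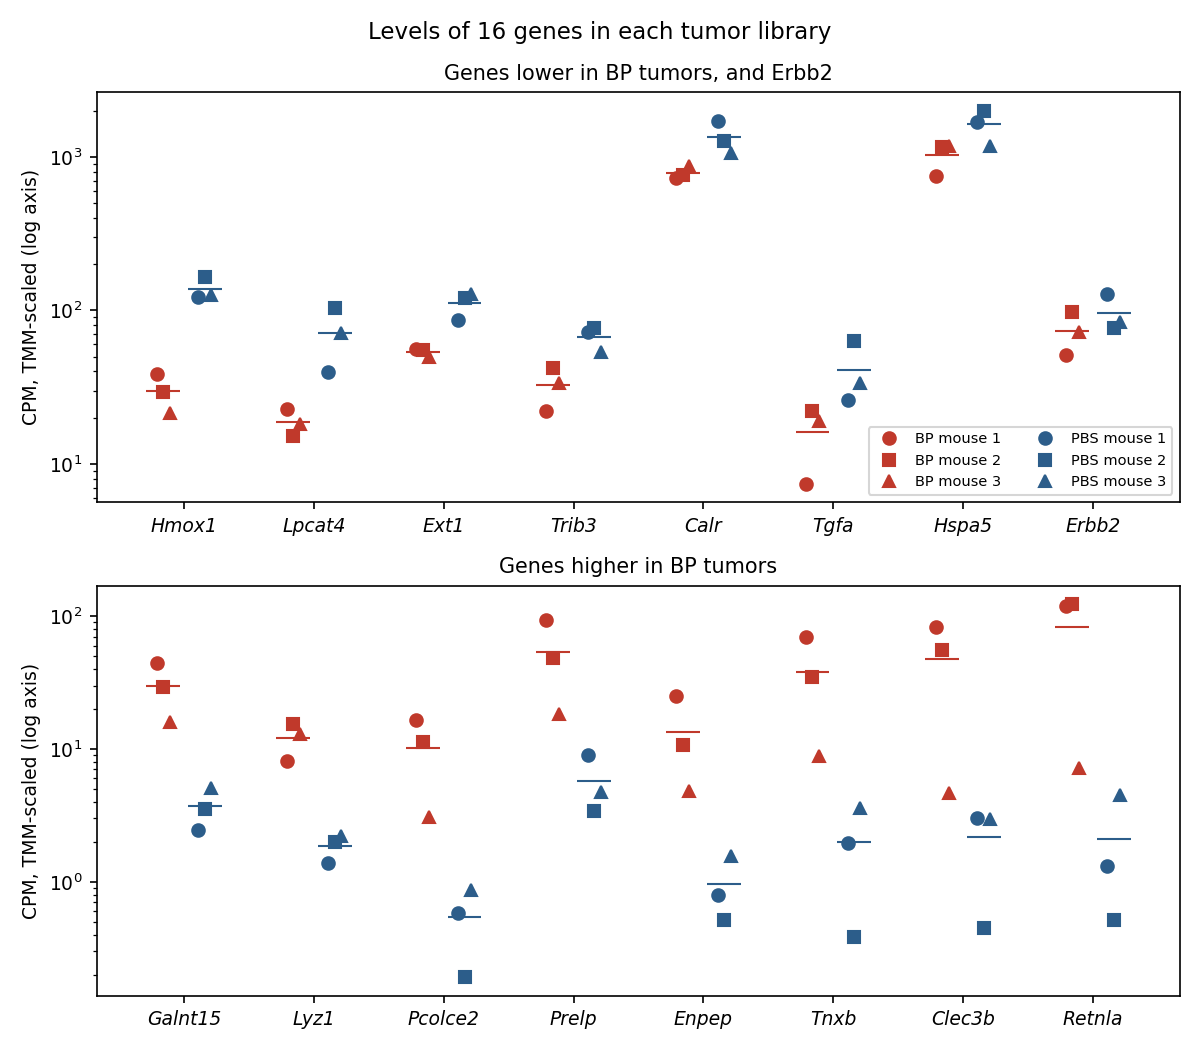
CPM (TMM-scaled, log axis) of 16 genes in each tumor, BP left of PBS, with 1 symbol per mouse and a line at each group mean. Hmox1, Lpcat4, Ext1 and Trib3 of BP tumors lie under every PBS tumor, Erbb2 overlaps, and the genes of the lower panel lie above every PBS tumor.

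Higher in BP tumors by the smallest p were genes of several roles. Galnt15, an enzyme that starts mucin-type O-glycans, was at 43.96, 29.4 and 16.1 CPM in BP tumors, against 2.46, 3.52 and 5.11 CPM in PBS tumors (log2 fold change 3.01 ± 0.49, edgeR unadjusted p = 0.000475, DESeq2 adjusted p = 3.56e-05). Lyz1, a lysozyme, stood at 8.10, 15.5 and 12.9 CPM in BP tumors, against 1.38, 1.98 and 2.20 CPM in PBS tumors (log2 fold change 2.71 ± 0.45, DESeq2 adjusted p = 4.74e-05). The groups did not overlap for these 2 genes, and Lyz1 was lowest in fat-rich BP tumor 1. Lyz1 has a close copy, Lyz2, so its estimated counts are uncertain. Gfra4, a receptor of the GDNF family, was measured at 6.59, 20.05 and 5.72 CPM in BP tumors, against 0.435, 0.576 and 1.02 CPM in PBS tumors (log2 fold change 3.98 ± 0.72). Pcdh7, a protocadherin, was at 9.13, 6.23 and 7.13 CPM in BP tumors, against 1.67, 1.41 and 0.707 CPM in PBS tumors (log2 fold change 2.56 ± 0.51). Kctd12b stood at 22.4, 5.44 and 21.7 CPM in BP tumors, against 2.03, 0.512 and 1.10 CPM in PBS tumors (log2 fold change 3.76 ± 0.77). Kctd12b was high in BP tumors 1 and 3 alike, and Pcdh7 varied little among the BP tumors. Gnai1, an inhibitory G protein subunit, Ptger3, a prostaglandin E2 receptor, Clic5, of a chloride channel family, Lctl and Tmem182 were highest in BP tumor 1. Their log2 fold changes were 5.25 ± 1.08, 5.97 ± 1.40, 4.21 ± 0.93, 6.24 ± 1.29 and 6.25 ± 1.32, and with BP tumor 3 alone 2.97, 2.96, 3.32, 3.94 and 4.03. The PBS values of Lctl and Tmem182 were near or under the floor of 3 counts, so the size of these fitted changes is uncertain.

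Most listed genes of vessels and matrix were higher in BP tumors, as were those of fat. Of 29 tested blood endothelial genes 27 were higher (median log2 fold change 1.82), 10 without overlap (5.66% over all genes). DESeq2 called 2 of the 29, both higher (0.984% over all genes). The median was 1.05 to 2.51 with each tumor left out and 0.50 with BP tumor 3 alone. Vwf, von Willebrand factor, was measured at 42.4, 11.5 and 5.20 CPM in BP tumors, against 2.97, 1.15 and 2.51 CPM in PBS tumors (log2 fold change 3.15 ± 0.85, DESeq2 adjusted p = 0.0119). Ackr1, a chemokine-binding receptor of venules, was at 7.81, 4.15 and 1.04 CPM in BP tumors, against 0.507, 0 and 0.236 CPM in PBS tumors (log2 fold change 4.10 ± 1.20). Its values in PBS tumors 2 and 3 were at or under the floor of 3 counts, so the size of its change is uncertain. Eng, a TGF beta co-receptor of endothelium, stood at 56.1, 23.8 and 37.8 CPM in BP tumors, against 20.6, 4.41 and 8.17 CPM in PBS tumors (log2 fold change 1.82 ± 0.61). For each of the 3 genes BP tumor 1 was highest, and for Eng BP tumor 3 was above BP tumor 2. Pecam1, the panendothelial marker, was at 69.00, 29.4 and 16.9 CPM in BP tumors and 17.4, 4.93 and 11.5 CPM in PBS tumors, with BP tumor 3 just under PBS tumor 1. Ptprb, a phosphatase of endothelium, had 2.64 ± 0.82. All 7 tested lymphatic genes were higher, 3 without overlap (5.66% over all genes). Among these was Lyve1, a hyaluronan receptor, at 6.97, 17.3 and 2.96 CPM in BP tumors and 1.38, 0.0640 and 0.471 CPM in PBS tumors. Reln, reelin, was at 2.64, 29.9 and 3.33 CPM in BP tumors and 0.0724, 0.640 and 0.864 CPM in PBS tumors. Both were highest in BP tumor 2, not in the fat-rich one. Lyve1 in PBS tumor 2 and Reln in PBS tumor 1 were under the floor of 3 counts.

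Of 26 fibroblast genes 24 were higher (median log2 fold change 1.42), 4 without overlap on the higher side (5.66% over all genes) and 1 on the lower (5.15%). Tnxb, tenascin X, was measured at 69.8, 35.01 and 8.89 CPM in BP tumors, against 1.96, 0.384 and 3.61 CPM in PBS tumors (log2 fold change 4.26 ± 1.01, DESeq2 adjusted p = 0.000587). Dpt, dermatopontin of the matrix, was at 274, 147 and 15.97 CPM in BP tumors, against 9.12, 0.832 and 9.58 CPM in PBS tumors (log2 fold change 4.49 ± 1.23). Clec3b, tetranectin, stood at 83.4, 55.3 and 4.68 CPM in BP tumors, against 3.04, 0.448 and 2.98 CPM in PBS tumors (log2 fold change 4.47 ± 1.15). In all 3 genes the order was BP tumor 1, then 2, then 3, the order of their white fat sums. PBS tumors did not keep to the order of their fat sums, which were 1272, 1671 and 5083. All 3 genes were lowest in PBS tumor 2. The matrix genes Prelp (log2 fold change 3.22 ± 0.67) and Pcolce2 (log2 fold change 4.22 ± 0.85) and the peptidase gene Enpep (log2 fold change 3.803 ± 0.78) were ordered likewise among BP tumors. The main collagen gene had this order among BP tumors too, but its groups overlapped. Col1a1 was measured at 331, 174 and 78.7 CPM in BP tumors, against 489, 25.4 and 39.04 CPM in PBS tumors, with PBS tumor 1 the highest of all 6. With BP tumor 3 alone the median of the fibroblast list was -0.41.

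White fat genes were higher in all 30 cases (median log2 fold change 4.49), 17 without overlap (5.66% over all genes). The median was 1.85 without BP tumor 1 and 1.04 with BP tumor 3 alone. Adipoq, adiponectin, was at 1124, 115 and 34.5 CPM in BP tumors, against 6.52, 0.448 and 15.4 CPM in PBS tumors (log2 fold change 5.84 ± 1.71). Lep, leptin, stood at 77.7, 7.52 and 9.21 CPM in BP tumors, against 0.290, 0 and 1.73 CPM in PBS tumors (log2 fold change 5.56 ± 1.54). Pparg, the regulator of fat cell formation, was measured at 106, 8.73 and 2.705 CPM in BP tumors, against 0.724, 0.448 and 1.41 CPM in PBS tumors (log2 fold change 5.503 ± 1.47). BP tumor 3 was above every PBS tumor in all 3 genes, though below the other BP tumors in Adipoq and Pparg. Lep was under the floor of 3 counts in PBS tumor 2, so the size of its change is uncertain. Car3, Plin4, Dgat2 and Fasn, of fat cells and lipid synthesis, had 5.68 ± 1.501, 5.31 ± 1.46, 4.11 ± 1.32 and 2.69 ± 1.05. Ucp1 of brown fat was at 1138 CPM in BP tumor 1 and at most 16.5 CPM in the other 5. The muscle genes Mylpf and Des were at 706 and 273 CPM in BP tumor 2, against at most 0.941 and 21.3 CPM in the other 5. Of 26 muscle genes 6 were tested, and the defining gene Ckm, creatine kinase, was not, at 719 CPM of the library total in BP tumor 2 and at most 0.553 CPM in the other 5. The part of adipose tissue in the vessel and matrix differences was not tested.

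**Figure D4:**
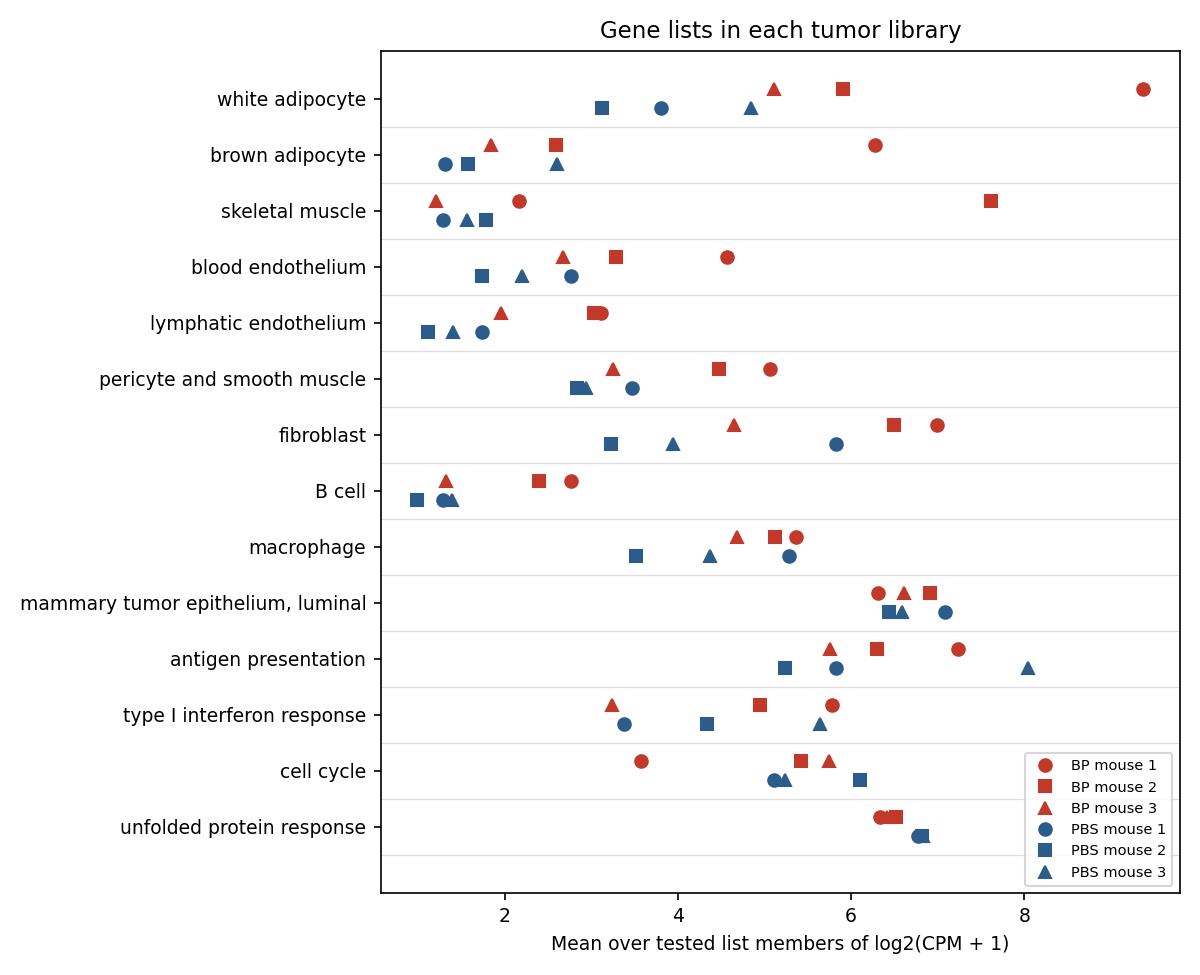
Mean over the tested members of each list of log2(CPM + 1) in each tumor, BP above PBS within each list and 1 symbol per mouse. BP tumor 1 is far right for fat and far left for cell cycle, BP tumor 2 far right for muscle, and PBS tumor 3 far right for antigen presentation.

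Retnla, a secreted product of alternatively activated mouse macrophages that fat also makes, was at 118, 122.9 and 7.23 CPM in BP tumors, against 1.304, 0.512 and 4.48 CPM in PBS tumors (log2 fold change 5.31 ± 1.25, DESeq2 adjusted p = 0.000105). F13a1, a transglutaminase of tissue macrophages, stood at 50.9, 96.5 and 23.8 CPM in BP tumors, against 20.6, 1.60 and 7.78 CPM in PBS tumors (log2 fold change 2.52 ± 0.90). Retnla was high in BP tumors 1 and 2 and close to PBS tumor 3 in BP tumor 3. Of 28 tested macrophage genes 24 were higher (median log2 fold change 0.46, and 0.10 with BP tumor 3 alone) and none without overlap (5.66% over all genes). Ptprc, the leukocyte gene CD45, was at 46.97, 28.9 and 21.7 CPM in BP tumors and 26.6, 14.1 and 23.2 CPM in PBS tumors. Of 12 tested dendritic cell genes 9 were higher and 3 lower (median 0.66, and 0.11 with BP tumor 3 alone), 4 without overlap (5.66% over all genes). Siglech of plasmacytoid dendritic cells and Cd209a of monocyte-derived dendritic cells were 2 of these, with log2 fold changes of 2.47 ± 0.64 and 3.30 ± 1.01. B cell genes were higher in 10 of 11 cases (median 1.89, and 0.26 with BP tumor 3 alone), 3 without overlap (5.66% over all genes). Their mean log2(CPM + 1) was 2.76, 2.40 and 1.33 in BP tumors and 1.28, 0.991 and 1.39 in PBS tumors, so that BP tumor 3 lay inside the PBS range. Among them were Cd79a at 4.99, 4.30 and 0.832 CPM in BP tumors and 0.724, 0.704 and 0.550 CPM in PBS tumors, and Ms4a1 at 3.95, 1.86 and 0.936 CPM in BP tumors and 0.217, 0.576 and 0 CPM in PBS tumors. Cd3e, the CD3 epsilon subunit of the T cell receptor complex, was at 2.73, 0.143 and 0.520 CPM in BP tumors and 0.941, 0.320 and 1.18 CPM in PBS tumors, with overlap. Antigen presentation genes were lower in 18 of 22 cases (median -0.31), but their summed CPM was 10904, 4425 and 2858 in BP tumors and 3424, 2075 and 17319 in PBS tumors, so PBS tumor 3 and BP tumor 1 stood out, and without PBS tumor 3 the median was 1.07. Alb, liver albumin, was at 216, 199 and 108 CPM in BP tumors and 154, 172 and 169.7 CPM in PBS tumors. Sftpc, a lung surfactant protein gene, was at 12.4, 16.8 and 116 CPM in BP tumors and 0.145, 12.6 and 15.2 CPM in PBS tumors, for which BP tumor 3 stood apart.

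Genes without overlap were not spread evenly over chromosomes, a pattern looked for after the chromosomes of single genes were seen. Among 8679 protein-coding genes whose average log2 CPM was 4 or more, groups did not overlap on the higher side for 4.01%, but for 10.8% on chromosome 16, 10.2% on chromosome 5, 10.1% on chromosome 3 and 9.83% on chromosome 13, and for 0.330% on chromosome 19, 0.372% on chromosome 4 and 0.634% on chromosome 9. On the lower side they did not overlap for 6.75%, but for 17.5% on chromosome 8, 17.3% on chromosome 4, 15.2% on chromosome 9, 12.2% on chromosome 15, 11.7% on chromosome 6 and 10.9% on chromosome 19. Each gene's level in a tumor was set against its median over the 6 tumors, and the median of these log2 deviations was taken per chromosome. In BP tumor 1 it was -0.23 on chromosome 12 and -0.20 on chromosome 15. In BP tumor 2 it was -0.48 on chromosome 4, -0.46 on chromosome 7, -0.45 on chromosome 8 and -0.47 on chromosome 9, and 0.20 on chromosome 19. In BP tumor 3 it was -0.64 on chromosome 19, where 75.2% of genes had their lowest level of the 6 tumors. Among PBS tumors, number 1 was higher on chromosomes 1 (0.33), 17 (0.23) and X (0.52) and lower on chromosomes 6 (-0.23) and 15 (-0.24). Number 2 was higher on chromosomes 2 (0.45), 12 (0.37), 15 (0.36) and 6 (0.30), and number 3 was higher on chromosomes 15 (0.33) and 6 (0.28). These are the 19 of 120 chromosome and tumor pairs that deviated by over 0.2, and they lie on 12 of 20 chromosomes. The other 5 organs of the same mice were measured on CPM of the library total, with each library centred on 0. There none of 600 pairs deviated by over 0.2, with a largest deviation of 0.0670. On that measure 18 of the 120 tumor pairs did.

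**Figure D5:**
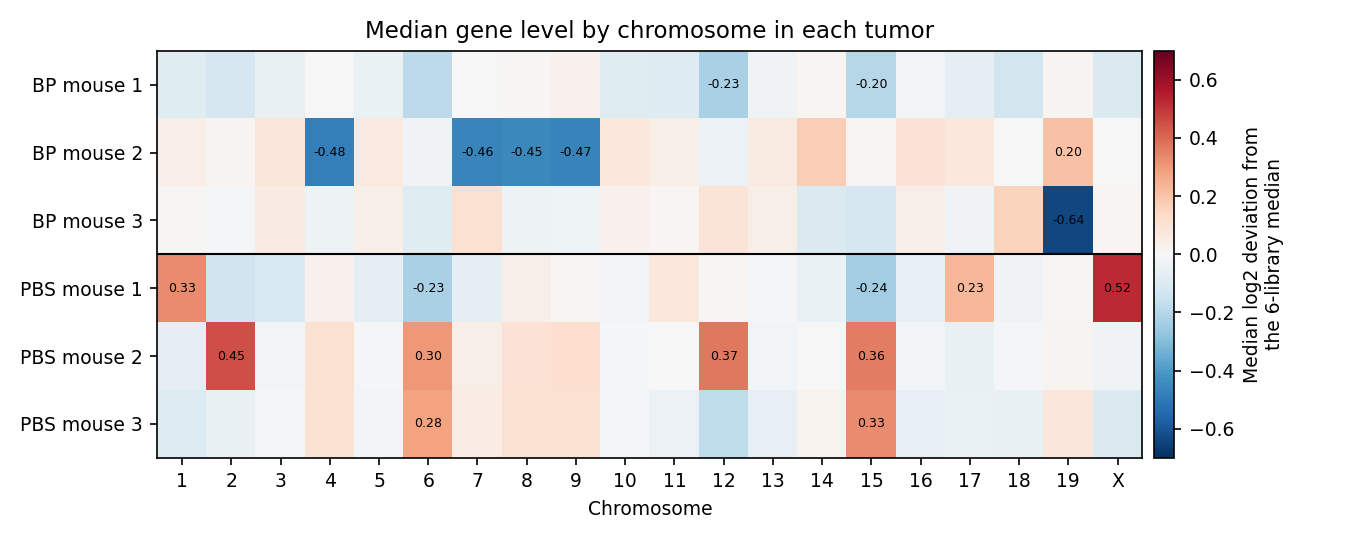
Median log2 deviation of protein-coding genes (average log2 CPM of 4 or more) from their 6-tumor median, by chromosome and tumor, BP rows above PBS rows, with values beyond 0.2 printed. Chromosomes 4, 7, 8 and 9 are low in BP tumor 2 alone, and chromosome 19 in BP tumor 3 alone.

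Those 12 chromosomes held 62.8% of all tested genes, 84.0% of the 748 genes that were lower in BP tumors without overlap, and 27 of the 28 such genes named here, all but Txnrd1. The 12 were picked by gene levels in these same tumors, so an excess of such genes there can follow from the choice. The share of genes higher without overlap was not computed for them. Hmox1, Calr, Cdh1, Slc20a2, Cmip and Sap30 are on chromosome 8, and Creld2, Ext1, Khdrbs3, Fzd6 and Atf4 on chromosome 15. Trib3, Hspa5 and Lpcat4 are on chromosome 2, Pdia4, Tgfa and Fbln2 on chromosome 6, and Manf and Mmp13 on chromosome 9. Errfi1 and Tnc are on chromosome 4, Kcnq1 and Hamp on chromosome 7, Treml4 on chromosome 17, Fth1, Aldh18a1 and Tmem132a on chromosome 19, and Capn6 and Fgd1 on X. Fth1 was lowest in BP tumor 3, as was chromosome 19. The log2 fold change of Hmox1 was -2.20 without BP tumor 2, and Slc20a2, Cmip and Sap30 had -0.83, -0.90 and -0.97 without it. The part of the chromosome shifts in single gene differences was not tested. In the nanoparticle-associated cells of the 3 BP tumors, each centred on its own genes, chromosome 4 deviated from the bulk tumor median by -0.56, -0.57 and -0.59 in mice 1, 2 and 3. Chromosome 8 deviated by -0.56, -0.58 and -0.56, and chromosome 9 by -0.60, -0.51 and -0.61. BP mouse 2 had these chromosomes low in both kinds of library, and BP mice 1 and 3 in the nanoparticle-associated library and not in the bulk tumor. Other chromosomes differed between the nanoparticle-associated libraries. Chromosome 7 deviated by -0.06, -0.60 and 0.26 in mice 1, 2 and 3, against 0.06, -0.45 and 0.12 in their bulk tumors. Chromosome 19 deviated by -0.12, 0.30 and -0.65, against 0.06, 0.24 and -0.60 in bulk. Chromosome 14 deviated by -0.20, 0.31 and -0.72, against 0.06, 0.16 and -0.08 in bulk. DNA was not measured in the data used here.

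Whether tumors changed differently from the other organs was tested over all genes. By edgeR's interaction test 597 of 18613 genes (3.21%) changed more upward, and 159 (0.854%) more downward, in tumor than in the mean of the other 5 organs of the same mice. Mice of 1 group differed most among tumors, with a biological coefficient of variation of 0.513, against 0.150 to 0.381 in the other 5 organs, so that 1 shared spread is smaller than that of the tumors alone. With the spread taken over the 36 bulk libraries edgeR called 1181 genes in tumor, where it called 0 on the tumors alone. Of the 756 genes of the interaction, 85 were called with each tumor left out. Besides Hmox1, these edgeR calls included Lpcat4, by -1.82 on the log2 scale (adjusted p = 0.00247), and Ext1, by -1.09 (adjusted p = 0.00614). On the higher side the edgeR calls included Galnt15, by 3.37 (adjusted p = 0.00236), Gfra4, by 3.78 (adjusted p = 0.000507), and Lyz1, by 2.07 (adjusted p = 0.0118). The count was 157 without BP tumor 1, 258 without PBS tumor 2, 1451 without PBS tumor 1 and 2070 without BP tumor 3.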

How the data were processed

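RNA sequencing of 6 bulk mammary tumors, 1 per mouse, was analysed, with the 30 bulk libraries of the other 5 organs and 3 libraries of nanoparticle-associated tumor cells beside them. The deposited values are expected counts per gene made by the authors. Per the submitters' processing notes the tools were FastQC 0.11.9, cutadapt 3.5, STAR 2.7.9a and RSEM 1.3.1 with the mm10 build, while the strand setting and annotation are not given in the sources used here. Between 6.34% and 6.95% of a tumor's values were not whole, and all were rounded to whole numbers. RSEM shares reads among near-identical genes, so counts of close copies are uncertain.

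Groups came from the labels. Genes were kept by filterByExpr with a minimum count of 10, scaled by TMM and tested with edgeR 4.0.16 (quasi-likelihood F test, Benjamini-Hochberg adjustment, R 4.3.3) on the 6 tumors without covariates. DESeq2 1.42.0 was an alternative. The tumor change was tested against the mean change of the other 5 organs as an interaction over 36 bulk libraries. The tests were tried on simulated data. Promoters came from RefSeq (GRCm38.p6) and gene positions from GENCODE (GRCm38). No 2 tumors of a group held the same counts.

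Most genes were named by rules, though not every gene that a rule picked is described. The first rule took the 12 genes per direction with the smallest p and no overlap between groups. Another took up to 8 per direction with the smallest DESeq2 adjusted p among better expressed genes. Up to 4 members of each list without overlap were taken. A further rule took 8 per direction by smallest p that stayed at a log2 change of 1 or more with each tumor left out. A fixed set included all tested heme and iron genes. Others, such as Manf, Ddit3, Eif2ak3 and Eng, were named outside these rules. Members and lists were chosen with earlier results of these data known. Alternatives were other scalings and filters, a replicate block, a spread over all bulk libraries, leaving out fat, muscle and mitochondrial genes, leaving out each tumor, and BP tumor 3 alone.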

Additional observations from a re-analysis of the deposited data

Results flagged for a closer look

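For 55 of the 131 named genes edgeR's interaction test set the tumor change apart from the average over liver, spleen, lung, lymph node and bone marrow of these mice at an adjusted p under 0.05, against 3.21% higher and 0.854% lower over all genes of that test. Many of the named genes were picked by small p and lack of overlap in these same tumors, so a high count follows from the choice. The values below are the tumor change minus that average, on the log2 scale. In heme and iron handling the values were Hmox1 (-2.52), Hp (3.71), Cd163 (2.33), Bmp6 (2.73), Heph (3.45) and Steap4 (2.47). In the unfolded protein response the values were Pdia4 (-1.03), Calr (-0.96), Atf4 (-0.59) and Eif2ak3 (-0.93). In fat and muscle the values were Nrg4 (4.24), Pparg (5.41), Plin4 (5.38), Car3 (5.60), Dgat2 (4.19), Des (5.74) and Mylpf (7.75). In blood and lymph vessels the values were Vwf (3.15), Ackr1 (4.005), Ptprb (2.68), Eng (1.73), Pecam1 (1.62), Lyve1 (3.73) and Reln (4.55). In matrix the values were Tnxb (4.58), Dpt (4.62), Clec3b (4.35), Prelp (3.20), Pcolce2 (4.56), Mmp13 (-3.65) and Tnc (-2.96). In immune cells the values were Retnla (6.25), F13a1 (2.502), Lyz1 (2.07), Siglech (2.07), Cd209a (3.29), Ms4a1 (2.64), Cd79a (2.17) and Treml4 (-2.16). The other genes higher by this test were Galnt15 (3.37), Gfra4 (3.78), Pcdh7 (2.48), Kctd12b (3.61), Gnai1 (5.54), Enpep (3.83), Clic5 (4.004), Ptger3 (5.72) and Steap2 (2.52). The other genes lower by it were Lpcat4 (-1.82), Ext1 (-1.09), Slc20a2 (-0.80), Cmip (-0.88), Tmem132a (-1.44), Kcnq1 (-1.49) and Aldh18a1 (-1.502). Called with each of the 6 tumors left out in turn were 19 of them, namely Hmox1, Des, Ackr1, Lyve1, Tnxb, Dpt, Clec3b, Prelp, Pcolce2, Retnla, Lyz1, Galnt15, Gfra4, Pcdh7, Kctd12b, Enpep, Clic5, Lpcat4 and Ext1. The fat, muscle and mitochondrial content of BP tumors 1 and 2 stands beside these values in the text above, and its part in them was not tested.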

How the results depend on the processing

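The count of 0 genes by edgeR was the same under both other scalings, both other filters, without fat, muscle and mitochondrial genes, with each tumor left out and with BP tumor 3 alone. The 867 genes at an unadjusted p under 0.05 were 860 and 916 under the other scalings, 1607 without a filter, 668 with the stricter one, 408 to 1661 with 1 tumor left out, and 193 with BP tumor 3 alone. DESeq2 on its own filter called 177 genes, and edgeR with the spread taken over 36 bulk libraries called 1181. The replicate numbers name different mice, and the deviations of same-numbered tumors correlated at 0.095, 0.053 and -0.027, so they were not taken as pairs. With the replicate block edgeR called 0 genes (727 at an unadjusted p under 0.05), and with mouse as replicate block the interaction called 575. The number of lists with a median beyond 1 in size was 15, and 8 with BP tumor 3 alone, a single library assumed to vary like the others, but only 3 of them (white adipocyte, lung epithelium, salivary gland) were the same lists with the same sign, and 1 (NK cells) had turned. The interaction called 756 genes, 265 with spleen, liver and bone marrow alone as other organs, and 157 to 2070 with 1 tumor left out. Of 131 named genes, 100 kept their sign in every alternative run. The sign turned with BP tumor 3 alone for Fth1 (-0.69), Ftl1 (-0.53), Erbb3 (0.0255), Ucp1 (-5.69), Acta1 (-1.14), Mylpf (-1.01), Col1a1 (-1.21), Cd68 (-0.0756), Cd3e (-0.61), Mki67 (0.17), Top2a (0.26), Alb (-0.59), Hpx (-0.58), Ncoa4 (-0.11), Scara5 (-0.13), Slc25a28 (-0.23), Slc25a37 (-0.18), Slc39a14 (-0.0799), Slc48a1 (-0.19) and Tfr2 (-0.17). It turned with the replicate block for Ftl1 (-0.0182), Cd3e (-0.14), Bach1 (0.0246), Cp (0.12), Hpx (-0.0189) and Krt14 (0.66). It turned with upper-quartile scaling for Slc11a1 (0.0209), Aco1 (0.0251) and Bach1 (0.0491). It turned with the spread over 36 libraries for Col1a1 (-5.51e-05) and Hpx (-0.0375). It turned with DESeq2 for Hpx (-0.00824). It turned with no filter for Hpx (-0.0122). With 1 tumor left out the ranges that crossed 0 were -0.31 to 0.25 for Ftl1, -0.60 to 0.00943 for Tfrc, -0.50 to 0.13 for Slc11a1, -0.58 to 0.16 for Krt18, -0.40 to 0.19 for Erbb3, -2.38 to 9.38 for Ucp1, -1.302 to 9.08 for Acta1, -0.24 to 8.88 for Mylpf, -0.53 to 2.58 for Col1a1, -0.0866 to 0.62 for Cd68, -1.22 to 0.97 for Cd3e, -0.0818 to 0.30 for Alb, -0.41 to 0.20 for Aco1, -0.21 to 0.29 for Bach1, -0.54 to 0.69 for Cp, -0.36 to 0.0765 for Flvcr1, -1.44 to 0.0806 for Flvcr2, -0.33 to 0.21 for Hpx, -0.0225 to 0.39 for Ncoa4, -0.0432 to 0.96 for Scara5, -0.00811 to 0.35 for Slc25a28, -0.11 to 0.45 for Slc25a37, -0.25 to 0.44 for Slc39a14, -0.42 to 0.58 for Slc39a8, -0.21 to 0.40 for Slc46a1, -0.0573 to 0.38 for Slc48a1, -0.34 to 0.99 for Tfr2 and -4.58 to 4.32 for Krt14. The cause was not tested. Some low or muscle genes gave no value under the stricter filter or with fat and muscle genes left out. The chromosome count of 19 pairs, chosen after seeing the data, was also 19 with genes of an average log2 CPM of 6 or more. The spread between 3 tumors a group, with a biological coefficient of variation of 0.513, limits these comparisons, and other depths were not tried.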
